A study of Physcomitrium patens with 20 samples.

Results

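Loss of the CG methyltransferase MET was followed on top of loss of DNMT3b, by setting the 3 met/dnmt3b libraries against the 3 dnmt3b libraries, 6 of the 20 libraries of a moss mRNA sequencing study. The members were taken by genotype label alone, and both groups lack DNMT3b, so they differ by genotype in MET. All came from protonema, the filamentous juvenile tissue, of Physcomitrium patens (cultivar Grandsen per the labels), grown for 7 days on BCDAT medium at 25 °C with 16 h of light and 8 h of dark. Libraries of polyadenylated RNA started from 500 ng of total RNA. The labels do not say whether the replicates were separate cultures or how many mutant lines were used, so p-values cover the spread among libraries alone, and that spread may be technical.

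DNA methylation in plants occurs at cytosines in CG, CHG and CHH contexts, where H is any base but G, and methylation of transposable elements (TEs) goes with their silence. CG methylation of the moss is kept up by MET and CHG methylation by CMT, and most CHH methylation of its heterochromatin is the work of DNMT3b. The remaining pair, DRM1 and DRM2, belongs to the family that small RNAs direct in flowering plants. The comparison therefore asks what the loss of CG methylation adds in protonema from which DNMT3b is already missing.

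The labels put all 3 met/dnmt3b libraries in batch 1 and all 3 dnmt3b libraries in batch 2, and no met/dnmt3b library in batch 2 or dnmt3b library in batch 1 was analysed here. Between these 6 libraries, genotype and batch cannot be told apart. Wild type (wt), drm1drm2 (drm12) and cmt each have 2 libraries in batch 1 and 1 in batch 2, and these 9 libraries gauged the batch difference. Both met libraries are in batch 1, and the 3 cmt/dnmt3b libraries are in batch 2. The 6 libraries held between 15029218 (met/dnmt3b replicate 1) and 19745964 (dnmt3b replicate 2) counts, and the 20 libraries between 14236575 (wt replicate 3) and 21811993 (cmt replicate 3). Drm12 replicate 3 stood apart from the other drm12 libraries in its TE counts, and wt replicate 3 had raised levels over chromosome 19, and both are batch 2 libraries on which the batch gauge rests. Gene and TE rows carry identifiers with no names, and 0 of the gene identifiers matched the RefSeq gene table at hand. The transcripts of MET and DNMT3b, tissue markers and pathway lists were therefore not analysed here, and the features are described by identifier, level and behaviour across genotypes.

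TE transcripts took a larger part of the counts when MET was also lost. The share of counts in TEs was 0.279%, 0.208% and 0.219% in dnmt3b replicates 1, 2 and 3, and 0.364%, 0.450% and 0.308% in met/dnmt3b replicates 1, 2 and 3. The lowest met/dnmt3b library lay above the highest dnmt3b library, and the ratio of the means was 1.59 (a log2 ratio of 0.66). The difference of 0.139 percentage points had p = 0.1 by a two-sided exact permutation test, and with 3 libraries a group no smaller p is possible. In bulk RNA, more cells with TE transcripts and more TE transcripts per cell cannot be told apart.

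In the genotypes present in both batches, the batch difference in this share ran the other way. The batch 2 library held 1.74 times the batch 1 mean in wt, 3.20 times in drm12 and 1.84 times in cmt. Multiplied by these batch ratios, since dnmt3b is in batch 2, the ratio of met/dnmt3b to dnmt3b was 2.76 with wt, 5.08 with drm12 and 2.91 with cmt. It was 3.44 with the mean of the 3 on the log scale. Each of the scaled ratios rests on 1 batch 2 library.

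More TEs were detected in met/dnmt3b than in dnmt3b at equal depth. With every library thinned to 14236575 counts, 5995, 5055 and 5062 TEs had at least 1 count in dnmt3b, and 9729, 9020 and 7987 in met/dnmt3b. The 2 groups did not overlap. At the same depth wt had 1249 and 1595 in batch 1 and 3216 in batch 2, and met had 4620 and 2027. Genes showed a smaller difference of the same direction, with 21577, 21320 and 21350 detected in dnmt3b and 22373, 22562 and 22375 in met/dnmt3b. For genes the batch gauge ran the same way, with fewer detected in the batch 2 library than in both batch 1 libraries. The numbers were 20795 against 21343 and 21339 in wt, 21469 against 21572 and 21632 in drm12, and 21434 against 21628 and 21714 in cmt. The part of batch in the gene difference was not tested. The top 10 TEs of a library took 12.1 to 13.7% of its TE counts in dnmt3b and 12.3 to 13.1% in met/dnmt3b, ranges that overlap.

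**Figure D1:**
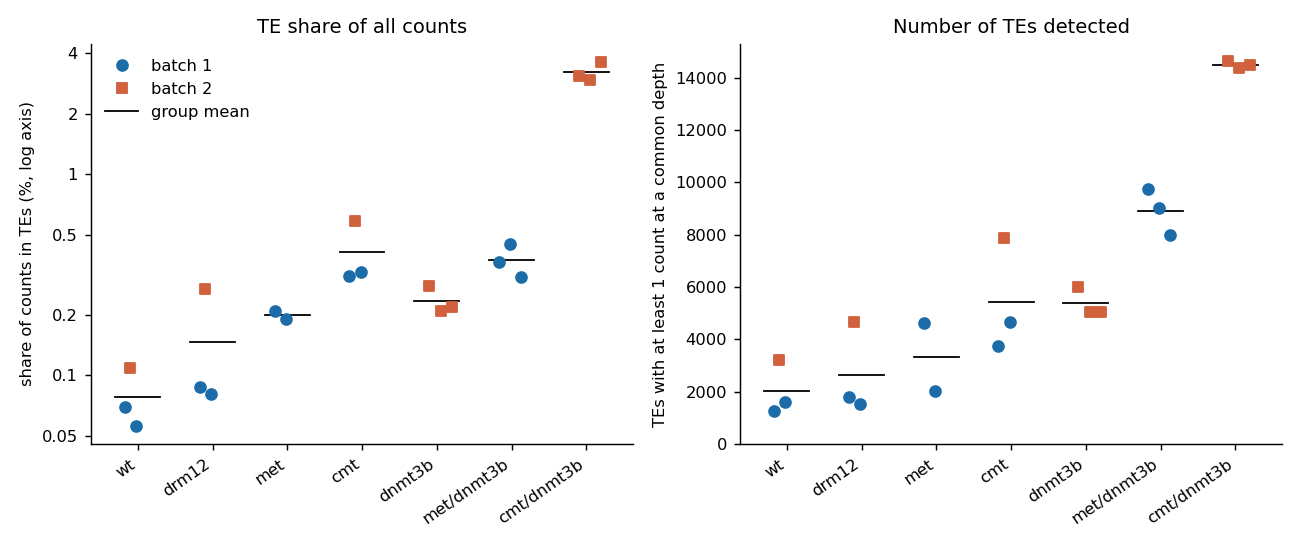
Share of counts in TEs in percent on a log axis (left) and number of TEs with at least 1 count after thinning to 14236575 counts (right) for each of the 20 libraries, by genotype, with circles for batch 1, squares for batch 2 and lines for group means. The met/dnmt3b circles lie above the dnmt3b squares in both panels, and the batch 2 square lies above the batch 1 circles in wt, drm12 and cmt.

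The gain was greatest in TEs that were silent in wild type. TEs with 0 counts in the 3 wt libraries, 24208 rows with counts elsewhere, summed to 588, 406 and 412 normalised CPM (counts scaled to library size) in dnmt3b and to 1410, 1290 and 1094 CPM in met/dnmt3b. The sum was 2.7 times as high in met/dnmt3b, and the groups did not overlap. TEs above 0 and under 0.5 CPM in wt (4308 rows) summed to 1387, 1023 and 1061 CPM in dnmt3b and to 1709, 2085 and 1466 CPM in met/dnmt3b, a ratio of 1.52, again without overlap. The 199 TEs at 0.5 CPM or more in wt summed to 973, 709 and 753 CPM against 949, 1018 and 741 CPM, a ratio of 1.11, and here the groups overlapped. Within the batch gauge, the TEs silent in wt summed 7.78 times as high in batch 2 as in batch 1 in drm12 and 2.14 times as high in cmt, the opposite direction to the difference between the mutants.

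Many TEs contributed to the gain. Summed TE transcripts went from a mean of 2437 CPM in dnmt3b to 3921 CPM in met/dnmt3b, a difference of 1484 CPM. The mean was higher in met/dnmt3b for 12369 TEs and lower for 4252. The 3 TEs with the largest difference made up 15.3% of the net difference, the first 10 made up 26.2% and the first 100 made up 55.6%.

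Single TEs were tested with edgeR's quasi-likelihood test on the counts of all 20 libraries, in a model of genotype plus batch, at a Benjamini-Hochberg adjusted p under 0.05. By this test 1568 TEs rose, 23.8% of the 6602 tested, and 13 fell, 0.197%. With no batch term 446 TEs rose (6.76%) and 25 fell (0.379%), and 202 of the 1568 rises were among the calls of that fit. The batch term was itself large for TEs: 1965 of the 6602 (29.8%) were higher in batch 2 and 22 (0.333%) lower, and the median batch difference over all tested TEs was 2.38 on the log2 scale. The median log2 fold change of met/dnmt3b against dnmt3b over the tested TEs was 3.17 with the batch term and 0.70 without it, and the fit adds the batch difference to the fold of the batch 1 mutant. Without drm12 replicate 3 the calls were 900 rises and 12 falls, without cmt replicate 3 they were 840 and 5, and without met/dnmt3b replicate 2 they were 976 and 11.

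The libraries themselves separated the genotypes in fewer of these TEs. Of the 1568 that rose, 763 (48.7%) had every met/dnmt3b library above every dnmt3b library, against 24% of all tested TEs. In 766 the libraries overlapped, and in 39 every met/dnmt3b library lay below every dnmt3b library, opposite to the sign of the fit. The same libraries chose the calls, so the share of 48.7% is no independent support. For 381 of the 1568 (24.3%) the direct difference was a rise larger than each of the 3 batch differences seen in wt, drm12 and cmt. The share over all tested TEs, 31.7%, counts direct differences in either direction, so it is no like background for the rises. A set of 59 rose in the fit with batch and also without the batch term and without the wt, drm12 or cmt libraries. The low-count filter admits a TE for its level in 1 group, so the shares are of TEs that passed and not of the 241351 in the table.

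**Figure D2:**
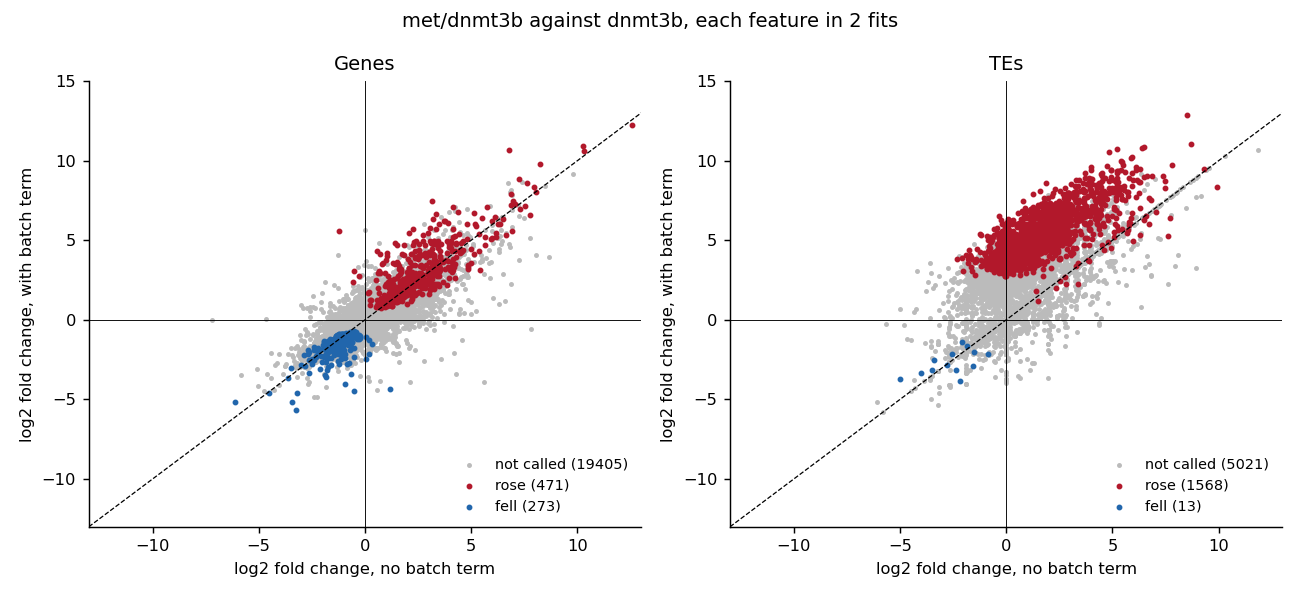
Log2 fold change of met/dnmt3b against dnmt3b with no batch term (horizontal axis) and with the batch term (vertical axis) for each tested gene (left) and TE (right), with features that rose or fell in the fit with batch in colour. Genes lie near the diagonal, with a median of -0.06 without and -0.05 with the batch term, whereas TEs lie above it, with medians of 0.70 and 3.17.

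TEs that were silent in all 3 dnmt3b libraries and clearly transcribed in met/dnmt3b were listed without a batch term. Genotype and batch still coincide in this list. There were 27 TEs with 0 counts in dnmt3b and at least 1 CPM in each met/dnmt3b library, and 0 TEs with the reverse pattern. All 27 were called without the batch term, which their choice by these same libraries makes likely, and 5 with it. Of all tested TEs, 6.76% rose without the batch term and 23.8% with it. Their mean levels in met/dnmt3b ran from 1.30 to 26.2 CPM, with a median of 2.86. Of the 27, 24 had counts in both met libraries, 20 had at least 1 CPM in both, and the median level in met was 2.43 CPM. In 14 the met mean lay above the met/dnmt3b mean.

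Most of the 27 TEs had few or no counts in the libraries with an intact MET gene, with clear exceptions in cmt/dnmt3b. In 14 no count was found in any of these 15 libraries, of which the 3 dnmt3b libraries are at 0 by the choice of the TEs, and in 20 at most 1 of the 15 had counts. In 22 there were 0 counts in the batch 2 libraries of wt, drm12 and cmt, and in 18 there were 0 counts in the 6 batch 1 libraries of these genotypes. Absence from wt is common among TEs: 22 of the 27 had 0 counts in all wt libraries, and so had 4004 of the 6602 tested TEs. The share of all TEs at 0 counts in the 15 libraries was not counted, so these numbers are not shown to be particular to the 27. The mean in cmt/dnmt3b exceeded 1 CPM for 4 of the 27, and in each of these 4 the cmt/dnmt3b mean lay above the met/dnmt3b mean. TE 879493 had 42.8, 48.3 and 67.6 CPM in cmt/dnmt3b against 5.50, 8.52 and 6.38 CPM in met/dnmt3b. TE 877960 had 18, 14.8 and 28.3 CPM against 4.09, 5.94 and 3.22 CPM, and TE 896959 had 19.7, 21.1 and 11 CPM against 2.45, 3.26 and 1.87 CPM. TE 866071 had 1.32 CPM in cmt replicate 2. The highest of the set, TE 868538, had 26.4, 21.4 and 30.9 CPM in met/dnmt3b and 19.7 and 28.9 CPM in met, and 0.0718 CPM in wt replicate 2 was its only signal elsewhere. In TE 902507, the fourth TE with transcripts in cmt/dnmt3b, the met/dnmt3b libraries had 1.71, 1.16 and 1.55 CPM, the cmt/dnmt3b libraries 3.38, 1.69 and 3.41 CPM, and both met libraries 0 counts, as had all others. The TEs named here were picked after their values were seen.

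**Figure D3:**
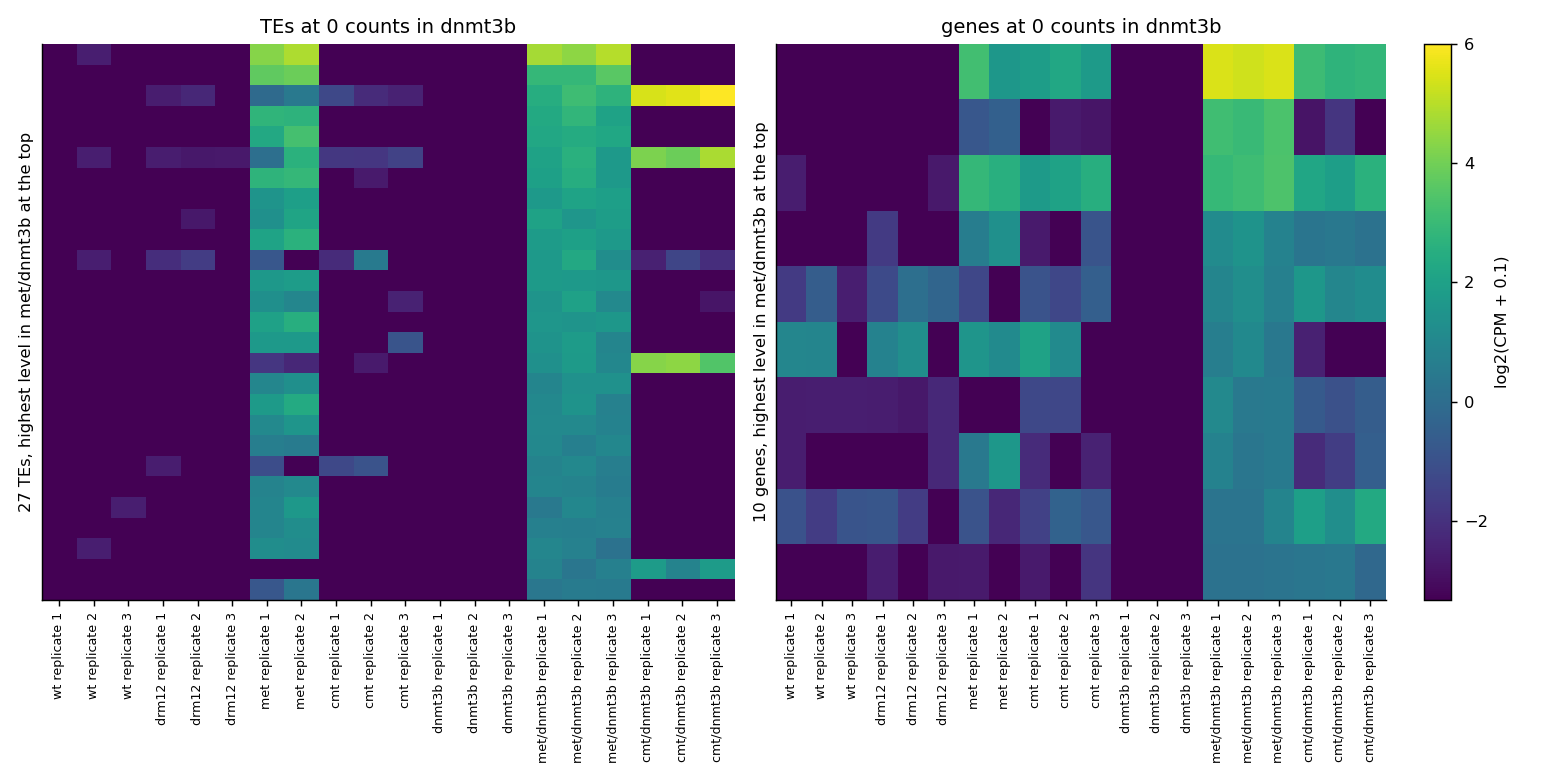
Level in each of the 20 libraries, as the log2 of CPM plus 0.1 in colour, for the 27 TEs (left) and the 10 genes (right) with 0 counts in dnmt3b and at least 1 CPM in each met/dnmt3b library. The met columns are filled for most TEs (24 of 27 with counts in both), while for TEs the wt, drm12 and cmt columns are mostly dark, at 0 counts, and 4 TEs are bright in cmt/dnmt3b.

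The 6 TEs with the largest fitted rises all had 0 counts in dnmt3b, and 2 of them also reached 1 CPM in each met/dnmt3b library. The other 4 had means of 0.199 to 0.625 CPM in met/dnmt3b, of 0 to 0.0863 CPM in met and of 0.786 to 6.78 CPM in cmt/dnmt3b. In TE 887035 the dnmt3b libraries had 0 counts and the met/dnmt3b libraries 2.68, 3.36 and 1.80 CPM, at least 45.6-fold higher against a floor of 3 counts over the dnmt3b group (edgeR adjusted p = 0.00171). The met libraries stood at 3.18 and 3.16 CPM, wt at 0. In TE 929990 the values were 0 counts in dnmt3b and 2.75, 3.94 and 2 CPM in met/dnmt3b, at least 50.5-fold higher (edgeR adjusted p = 0.012), with 2.40 and 1.84 CPM in met and 0 in wt. Neither was called without cmt replicate 3, where the fitted log2 folds were 8.48 and 8.63 in place of 12.89 and 11.06 (edgeR adjusted p = 1 for both). That library held 0.43 and 0.0861 CPM of them, and the batch 2 libraries of wt and drm12 held 0 counts. A TE row may share reads with near-identical copies, so the level of a single row is uncertain.

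The TEs that rose most in CPM were already active in met. TE 929068 had 0.601, 1.14 and 1.82 CPM in dnmt3b and 87.4, 115.9 and 74.2 CPM in met/dnmt3b (log2 fold change 5.32 ± 0.71 SE, edgeR adjusted p = 3e-04). It stood at 187.8 and 421.2 CPM in met, at 267.7 to 285.9 CPM in cmt and at 270.7 to 464.7 CPM in cmt/dnmt3b, all above met/dnmt3b. TE 912113 had 1.56, 1.46 and 2.13 CPM in dnmt3b and 86.4, 116.7 and 71.1 CPM in met/dnmt3b (log2 fold change 8.03 ± 0.92 SE, edgeR adjusted p = 9.64e-05). Its levels were 184.2 and 95.2 CPM in met, 100.7 to 150.6 CPM in cmt/dnmt3b, and 1.04 and 1.38 CPM in batch 1 and 24 CPM in batch 2 of cmt. The size of the fold rested on single libraries: for TE 912113 it was 5.33 without cmt replicate 3, 7.31 and 7.41 without cmt replicate 1 or 2, 9.52 without drm12 replicate 3 and 5.73 with no batch term, and the direct ratio was 55. For TE 929068 it was 4.17 without cmt replicate 3, 6.13 without drm12 replicate 3 and 6.28 with no batch term. In wt both TEs stayed under 1 CPM. The last of the 3 TEs named by rise in CPM, TE 859820, did not. It had 14.3 and 11 CPM in batch 1 wt and 0.145 CPM in batch 2 wt. In dnmt3b it had 0.120, 0.364 and 0.122 CPM, and in met/dnmt3b 50.4, 47.1 and 39.9 CPM. It had 38.5 and 35.4 CPM in met and 34.9, 41.7 and 29.7 CPM in cmt/dnmt3b. The drm12 libraries had 55.4 and 34.2 CPM of it in batch 1 and 51.3 CPM in batch 2. The cmt libraries had 19.5 and 26.3 CPM in batch 1 and 8.22 CPM in batch 2. Only the dnmt3b libraries and batch 2 wt thus lay under 1 CPM, and the part of batch was not tested. All 3 TEs named by their rise in CPM were called in each of the 4 other fits, without the batch term and without the wt, drm12 or cmt libraries.

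Few TEs fell. TE 886884 had 9.55, 5.15 and 4.50 CPM in dnmt3b and 1.56, 1.73 and 0.966 CPM in met/dnmt3b (log2 fold change -3.84 ± 0.73 SE, edgeR adjusted p = 0.00417), and the met libraries were lower still, at 0.120 and 0.263 CPM. Its log2 fold change was -3.16 without wt replicate 3, -5 without drm12 replicate 3 and -2.16 with no batch term. TE 976828 had 5.71, 6.39 and 8.51 CPM in dnmt3b and 0.149, 0.210 and 0.258 CPM in met/dnmt3b (log2 fold change -3.69 ± 1.05 SE, edgeR adjusted p = 0.0361). The call was lost in 13 of 25 alternatives, among them without any 1 of the met/dnmt3b libraries (edgeR adjusted p = 0.0856, 0.082 and 0.0651) and without cmt replicate 3 (log2 fold change -2.84, edgeR adjusted p = 0.0964). Without wt replicate 3 the log2 fold change was -4.76. In wt this TE had 1.08 and 0.215 CPM in batch 1 and 4.99 CPM in batch 2, so its batch 2 level in wild type was near that of dnmt3b. Each of the 13 TEs that fell had all met/dnmt3b libraries below all dnmt3b libraries, against 5.09% of all tested TEs. The same libraries chose the calls, so this separation is no independent support.

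Genes changed in both directions, with more rises than falls. By edgeR's quasi-likelihood test with the batch term, 471 genes rose, 2.34% of the 20149 tested, and 273 fell, 1.35%. The rises were large and the falls moderate. Of the 471, 317 rose more than 4-fold and 25 less than 2-fold, with a median log2 fold change of 2.58, and of the 273, 59 fell more than 4-fold and 51 less than 2-fold, with a median of -1.37. A mean of at least 20 CPM over the 6 libraries was reached by 157 of the rises and 141 of the falls. The median over all tested genes was -0.05. The balance of rises and falls rested on single libraries: without drm12 replicate 3 there were 440 rises and 472 falls, and without cmt replicate 3 there were 557 and 157.

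The batch term mattered less for these genes than for TEs. Between batches, 259 genes (1.29%) were higher and 394 (1.96%) lower in batch 2. Of the genes that rose in met/dnmt3b, 370 were also called without the batch term, and of those that fell, 208. Every met/dnmt3b library lay above every dnmt3b library in 447 of the 471 (94.9%), against 20.1% of all tested genes, and below in 249 of the 273 (91.2%), against 22.5%. The direct difference, in the direction of the call, was larger than each batch difference of wt, drm12 and cmt in 375 of the rises (79.6%) and 200 of the falls (73.3%). The share over all tested genes, 24%, counts either direction and is no like background. The same libraries chose the calls, so these shares describe them and are no independent support. The calls made in all 5 fits, with and without the batch term and without the wt, drm12 or cmt libraries, were 160 rises (34%) and 65 falls (23.8%). Without the batch term 1334 genes rose (6.62%) and 1279 fell (6.35%). Fewer genes were called without met/dnmt3b replicate 1 (279 rises and 104 falls) and without met/dnmt3b replicate 3 (333 and 133), and the falls numbered 168 without cmt replicate 1 and 171 without dnmt3b replicate 1.

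Rises were commonest among genes that wild-type protonema barely transcribes. Of 155 tested genes with 0 counts in wt, 18 (11.6%) rose and 0 fell, and 0 of the 18 were called in all 5 fits named above. Of 1720 genes above 0 and under 0.5 CPM in wt, 125 (7.27%) rose, 29 of them in all 5 fits, and 4 (0.233%) fell. From 0.5 to under 5 CPM the shares were 3.12% and 1.5% of 3402 genes, from 5 to under 50 CPM they were 1.34% and 1.58% of 10260, and at 50 CPM or more 1.84% and 1.21% of 4612. In these 3 classes 39 of 106, 66 of 137 and 26 of 85 rises were called in all 5 fits. Genes that are silent in wt pass the filter only through another genotype, so their share is of genes that some mutant transcribes. Genes with 0 counts in 1 group and clear levels in the other were found in 1 direction: 10 genes had 0 counts in dnmt3b and at least 1 CPM in each met/dnmt3b library, and 0 genes were at 0 counts in met/dnmt3b with at least 1 CPM in each dnmt3b library.

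Of the 10 genes with 0 counts in dnmt3b, 4 also had 0 counts in wt and 2 in both wt and drm12. Of the 10, 9 were called with the batch term and 10 without it, the latter being likely from how the genes were chosen. Of all tested genes, 2.34% rose with the batch term and 6.62% without it. Their mean levels in met/dnmt3b ran from 1.06 to 43.1 CPM. Counts were present in both met libraries for 7 and reached 1 CPM in both for 5, and the mean in cmt/dnmt3b exceeded 1 CPM for 6. In 1 of the 10, Pp3c1_7370, the pattern was that of the batches. It had 1.65 to 3.99 CPM in the batch 1 libraries of wt, drm12 and cmt and 0 counts in their batch 2 libraries. It was named for this after its values were seen.

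Pp3c24_2580 showed the largest rise among genes. It had 0 counts in dnmt3b and 44.8, 40.4 and 44.2 CPM in met/dnmt3b, at least 753-fold higher against a floor of 3 counts over the dnmt3b group (edgeR adjusted p = 9.64e-05). It also had 0 counts in wt and drm12, 8.93 and 2.95 CPM in met, 3.31 to 4.73 CPM in cmt and 6.53 to 8.25 CPM in cmt/dnmt3b. Every genotype with MET or CMT lost thus had transcripts, and the met/dnmt3b libraries lay above all others. Without cmt replicate 3 it was not called (edgeR adjusted p = 1), although the fitted log2 fold change was 12.52 against 12.25 with all libraries, and the batch 2 libraries of wt and drm12 then left to gauge the batch had 0 counts. Pp3c15_15080 had 0 counts in dnmt3b and 7.51, 8.52 and 10.5 CPM in met/dnmt3b, at least 154-fold higher (edgeR adjusted p = 2.82e-05). Its met libraries had 7.25 and 5.74 CPM, both below the lowest met/dnmt3b library, and its cmt libraries 3.31 to 5.68 CPM in both batches. Of the 8 genes with the largest rises, 7 had 0 counts in dnmt3b, all 8 were called without the batch term, and 1 was called in each of the 4 other fits.

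Expressed genes rose too. Pp3c3_15710 had 7.57, 8.06 and 8.51 CPM in dnmt3b and 89.3, 99.3 and 99.2 CPM in met/dnmt3b, a direct ratio of 12 (log2 fold change 4.75 ± 0.58 SE with the batch term, edgeR adjusted p = 0.000139). It was low in the other genotypes, with 0.404 to 1.29 CPM in wt, 3.12 and 0.790 CPM in met and 3.04 to 5.33 CPM in cmt/dnmt3b. Pp3c7_430 had 4.63, 11.8 and 8.33 CPM in dnmt3b and 71.1, 59.5 and 90.5 CPM in met/dnmt3b (log2 fold change 4.46 ± 0.84 SE, edgeR adjusted p = 0.00413). The batch 2 cmt/dnmt3b libraries all lay at or above the highest of these, at 104.1, 90.9 and 133 CPM, while wt had 2.02 to 13.6 CPM. The log2 fold change of Pp3c7_430 was 3.77 without cmt replicate 3 and 3.15 with no batch term, and that of Pp3c3_15710 was 3.57 with no batch term. All 4 genes of at least 20 CPM named for their rise were called in each of the 4 other fits.

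**Figure D4:**
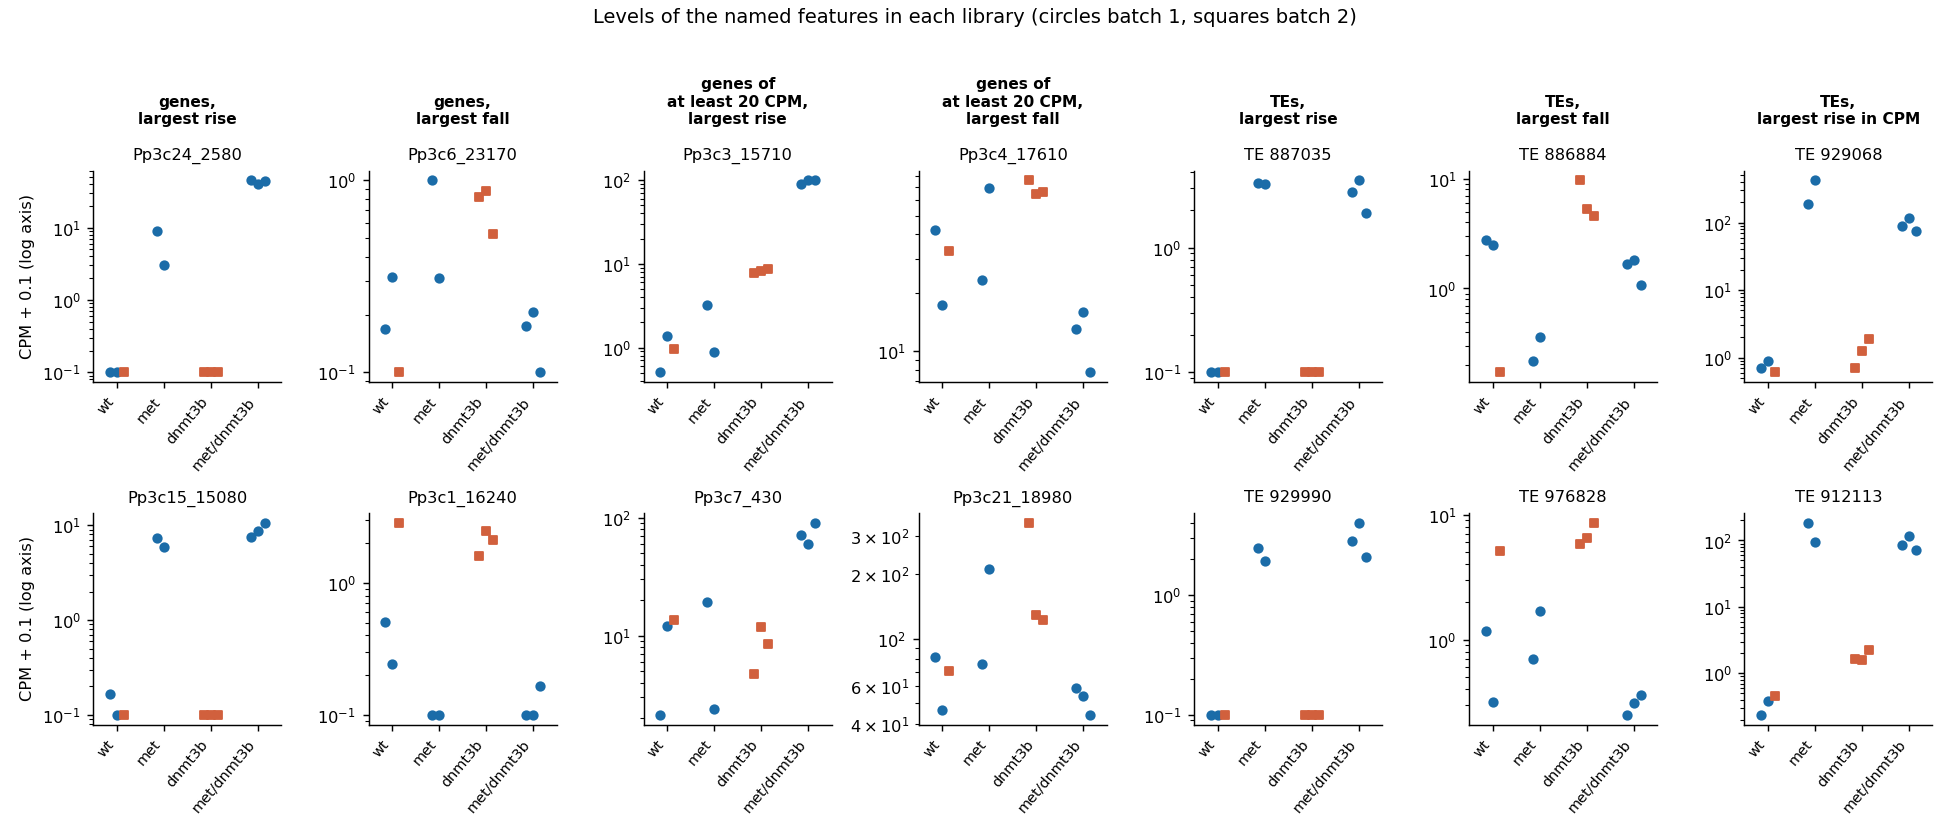
Level of the first 2 features of each named set in each wt, met, dnmt3b and met/dnmt3b library, as CPM plus 0.1 on a log axis, with circles for batch 1 and squares for batch 2. In the rises named by fold the dnmt3b squares sit at 0 counts with wt replicate 3, while Pp3c1_16240 and TE 976828 show a high wt square beside low wt circles.

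Among falls, expressed genes stood below their dnmt3b level in met/dnmt3b without reaching 0. Pp3c4_17610 had 76.1, 64.3 and 66.3 CPM in dnmt3b and 12.9, 15.9 and 7.66 CPM in met/dnmt3b (log2 fold change -2.77 ± 0.55 SE, edgeR adjusted p = 0.00527). In wt it had 42.2, 17.1 and 32.7 CPM, so dnmt3b lay above and met/dnmt3b below every wt library. Pp3c21_18980 had 344.1, 129.0 and 121.8 CPM in dnmt3b and 59.0, 53.9 and 44.1 CPM in met/dnmt3b (log2 fold change -2.36 ± 0.59 SE, edgeR adjusted p = 0.0196). In wt this gene had 81.7, 46.4 and 70.6 CPM, so dnmt3b lay above every wt library, while met/dnmt3b overlapped wt. The fold rested partly on dnmt3b replicate 1, without which it was -1.69 (edgeR adjusted p = 0.0605), and it was -1.90 without drm12 replicate 3 (edgeR adjusted p = 0.0513).

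The falls with the largest folds were in genes of low level. Pp3c6_23170 had 0.721, 0.780 and 0.426 CPM in dnmt3b and 0.0743, 0.105 and 0 CPM in met/dnmt3b, 3 counts in all. The ratio of dnmt3b to met/dnmt3b was 10.4 (95% counting interval 3.27 to 52.9, edgeR adjusted p = 0.0107), and it was not called without the batch term (edgeR adjusted p = 0.0559) or without cmt replicate 3. The fitted log2 fold change of -5.67 became -3.79 without cmt replicate 3 (edgeR adjusted p = 0.153), -6.48 without drm12 replicate 3 and -6.38 without met/dnmt3b replicate 2. Pp3c1_16240 had 1.5, 2.39 and 2.01 CPM in dnmt3b and 0, 0 and 0.0644 CPM in met/dnmt3b, 1 count in all, a ratio of 95.4 (95% counting interval 16.7 to 3804, edgeR adjusted p = 0.0177). Its wt libraries had 0.404 and 0.144 CPM in batch 1 and 2.75 CPM in batch 2, and both met libraries had 0 counts. It was not called without met/dnmt3b replicate 1 (edgeR adjusted p = 0.0503) or replicate 2 (edgeR adjusted p = 0.0598). The fitted log2 fold change of -5.16 became -7.14 without met/dnmt3b replicate 3, -6.32 without wt replicate 3 and -4.39 without cmt replicate 3.

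The levels of the called genes were also read in the other genotypes. Relative to the batch 1 wt mean, the 471 genes that rose had median log2 levels of -0.35, -0.29 and -0.28 in dnmt3b and of 1.05, 1.09 and 0.98 in met/dnmt3b. The 273 genes that fell had medians of 0.67, 0.45 and 0.46 in dnmt3b and of -0.61, -0.42 and -0.57 in met/dnmt3b. The dnmt3b and met/dnmt3b medians follow from how the genes were chosen, and the wt, drm12 and cmt libraries entered that choice through the batch term. For the rises, drm12 had 0.40 in batch 2 against -0.02 and -0.04 in batch 1. The medians were 0.32 against 0.14 and 0.19 in cmt, and -0.10 against -0.10 and 0.10 in wt. The part of batch in the levels of the other genotypes was not tested. The cmt/dnmt3b libraries, which are in batch 2 with dnmt3b, had medians of 0.87, 0.79 and 0.91 for the rises and of -0.43, -0.36 and -0.45 for the falls, on the side of met/dnmt3b in both sets. The met libraries, in batch 1 with met/dnmt3b, had medians of 0.01 and -0.37 for the rises and of 0.20 and 0.39 for the falls, the latter on the side of dnmt3b.

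**Figure D5:**
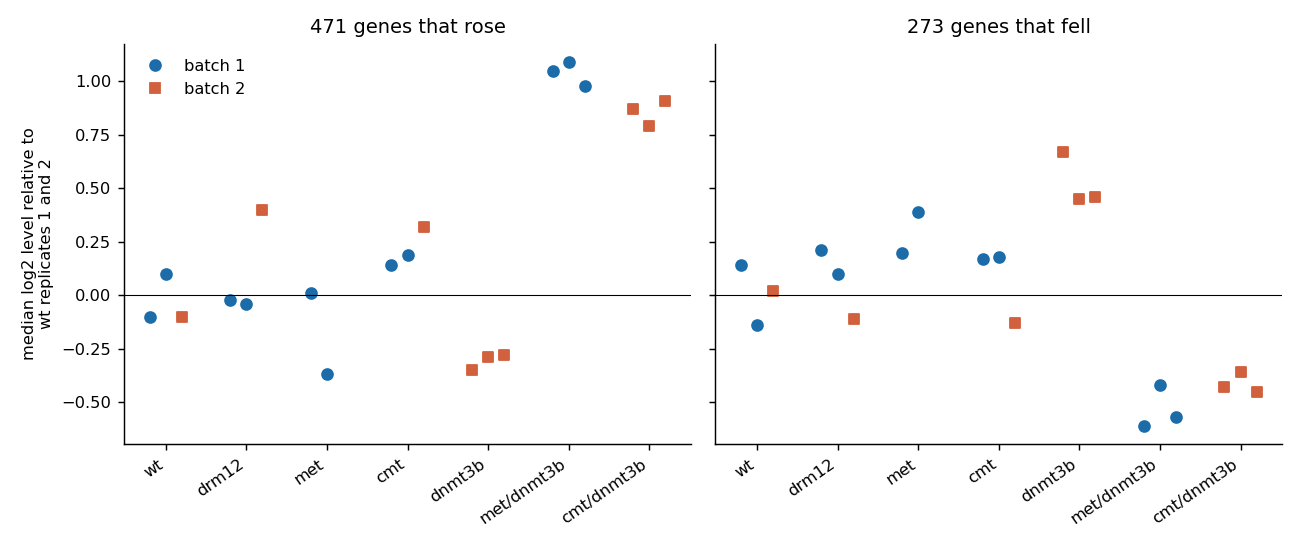
Median log2 level, relative to the batch 1 wt mean, of the genes that rose (471) and fell (273) in met/dnmt3b against dnmt3b, for each of the 20 libraries, with circles for batch 1 and squares for batch 2. The cmt/dnmt3b squares sit nearer to the met/dnmt3b circles than to the dnmt3b squares, at 0.79 to 0.91 for the rises, and the part of batch was not tested.

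Loss of MET from wild type gave fewer calls than its loss from dnmt3b. In met against wt, with 2 met libraries, 50 genes were called higher (0.248%) and 59 lower (0.293%) by edgeR's quasi-likelihood test in the same fit. Among TEs, 105 were higher (1.59%) and 1 was lower (0.0151%). These numbers of calls do not rank both effects by size. The TE rises in met/dnmt3b against dnmt3b numbered 446 with no batch term. The share of counts in TEs was 0.209% and 0.191% in met. In wt it was 0.0698% and 0.0561% in batch 1 and 0.109% in batch 2. The difference between both effects was tested as an interaction, the log2 level of met/dnmt3b minus those of met and dnmt3b plus that of wt. It passed the threshold for 453 genes with a positive sign (2.25%) and 335 with a negative sign (1.66%), and for 21 TEs with a positive sign (0.318%) and 11 with a negative sign (0.167%). In both directions together these were 3.91% of genes and 0.485% of TEs, and 8.81% and 0.318% with no batch term. A term that misses the threshold does not show that both effects were alike. In the named genes printed here the term passed for Pp3c3_15710 (3.18, edgeR adjusted p = 0.0291) and Pp3c4_17610 (-3.26, edgeR adjusted p = 0.0122). It also passed for Pp3c21_18980 (-3.30, edgeR adjusted p = 0.0157) and Pp3c6_23170 (-7.70, edgeR adjusted p = 0.012). It did not pass for Pp3c15_15080 (edgeR adjusted p = 0.422), Pp3c7_430 (edgeR adjusted p = 0.0561) or Pp3c1_16240 (edgeR adjusted p = 0.785). For Pp3c24_2580, at 0 counts in both wt and dnmt3b, the term could not be estimated.

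A comparison of libraries that share no sample set the direct differences beside met in wild type. In the 6 libraries alone, 2425 of 18591 genes rose (13%) and 2239 fell (12%) by edgeR's quasi-likelihood test. Of the 2425, both met libraries lay above both batch 1 wt libraries in 165 (6.80%) and below them in 1328 (54.8%), against 29.3% and 23.4% of all 18591. Of the 2239, they lay above in 59.8% and below in 3.71%. Median log2 differences from batch 1 wt were -0.42 and -0.70 in met for the rises and 0.50 and 0.64 for the falls, opposite in sign to the change between the mutants. The other batch 1 mutants had medians of the same sign, from -0.28 to -0.10 in drm12 and cmt for the rises and from 0.17 to 0.37 for the falls, a smaller shift of like direction. In these rises the batch 2 library lay below the batch 1 mean by a median of -0.71 in wt and -0.49 in cmt and above it by 0.19 in drm12, and the part of batch in the pattern was not tested. In the 6 libraries, 363 of 1077 TEs rose (33.7%) and 75 fell (6.96%). Of the 363, both met libraries lay above both batch 1 wt libraries in 33.9%, against 26% of all 1077 and 28% of the 75 that fell. The median log2 difference of met from batch 1 wt was 0.24 in the 363 and 0.30 over all 1077, so by this measure the risen TEs did not stand out.

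Gene calls were spread over the chromosomes, apart from chromosome 19. There 22 of 604 tested genes rose (3.64%) and 1 fell (0.166%), with a median log2 fold change of 0.27. Without the batch term the median was -0.07, and without wt replicate 3, in which this chromosome is raised, 16 genes rose and 13 fell of 600, with a median of -0.10. On the other chromosomes the median lay between -0.11 and 0, the share of genes that rose between 1.31 and 3.42% and the share that fell between 0.654 and 2.6%. Chromosome and order were read from the identifiers, a convention that was not checked against an annotation. In this order, 48 of 469 risen genes (10.2%) stood next to another risen gene, against 4.44% of the other genes, and 19 of 272 fallen genes (6.99%) next to another fallen gene, against 2.63%. The longest runs were 2 risen and 3 fallen genes.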

How the data were processed

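The table deposited by the authors gives raw counts in 20 libraries, with 31967 gene rows and 241351 TE rows. STAR 2.7.0f, cutadapt 1.15 and Trim Galore 0.6.0 are named, without roles, in the list of tools per the submitters' processing notes. How reads were counted, whether by strand, what was done with multi-mapping reads, and which genome build and gene models served is not given in the sources used here.

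The test was edgeR 4.0.16 (R 4.3.3) quasi-likelihood on the counts of all 20 libraries, in a model of genotype plus batch, with TMM factors over genes and TEs. The low-count filter (minimum count 10, minimum total 15, by group) left 20149 genes and 6602 TEs. Benjamini-Hochberg values over the 26751 features were called at 0.05. CPM values use the same factors, and log2 levels of single libraries add 0.5 CPM. Against a group at 0 counts, the fold is a lower bound, taking 3 counts for the whole group, and 95% counting intervals are exact. Both cover counting error only. Scripts were tested on simulated data.

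Named features were those past the threshold whose libraries did not overlap. Their fold kept its sign in the 4 other fits (no batch term, or no wt, drm12 or cmt libraries). They were ranked by fold, by fold at 20 CPM or more, or by rise in CPM. The first 2 of each ranking are printed, and also the TE ranked 3 by rise in CPM. The members, rules and classes were chosen with earlier results of these data known. Since no identifier matched a name, the planned lists by gene description were not run. Replicates differed by more than sampling noise (chi-square per degree of freedom 6.87 to 60.3), and none was a repeat. Alternatives included DESeq2 1.42.0, other scaling and filters, and leaving out in turn each of the 15 libraries of wt, drm12, cmt, dnmt3b and met/dnmt3b, but no met or cmt/dnmt3b library.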

Additional observations from a re-analysis of the deposited data

Results flagged for a closer look

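The effect of MET loss differed between the dnmt3b and the wild-type background, by the interaction term of edgeR's quasi-likelihood test, in 788 of 20149 genes (3.91%) and in 32 of 6602 TEs (0.485%). With no batch term the counts were 1776 genes and 21 TEs. The met/dnmt3b and met libraries are all in batch 1 and the dnmt3b libraries all in batch 2, so the term rests on the batch difference of wt, drm12 and cmt.

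Among the named features printed here, 5 passed for this term. Pp3c3_15710 had an interaction of 3.18 on the log2 scale (adjusted p = 0.0291), with 95.9 ± 5.71 CPM in met/dnmt3b (SD, n = 3) against 1.95 CPM in met (n = 2) and 8.05 CPM in dnmt3b (n = 3). Pp3c4_17610 had -3.26 (adjusted p = 0.0122) and Pp3c21_18980 had -3.30 (adjusted p = 0.0157), and in both genes met replicate 2 lay above replicate 1, at 69.3 against 23.1 CPM and at 209.8 against 75.9 CPM. Pp3c6_23170 had -7.70 (adjusted p = 0.012), from 3 counts in the met/dnmt3b libraries. TE 929068 had -3.30 (adjusted p = 0.0478), with 304.5 CPM in met and 92.5 CPM in met/dnmt3b.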

How the results depend on the processing

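With the 744 called genes and 1581 called TEs as the reference, the calls were 2613 genes and 471 TEs with no batch term and 4664 genes and 438 TEs in the 6 libraries alone. Without the drm12 or cmt libraries there were 947 and 807 TEs. The same replicate numbers were given to both groups, and with the replicate block 167 genes and 521 TEs were called. The deviations of same-numbered libraries had correlations of 0.31, 0.09 and -0.06, and replicate 2 of met/dnmt3b correlated best with dnmt3b replicate 3 (0.27), so the numbers were not taken to pair the libraries. With no low-count filter 1468 genes were called, with DESeq2 1164, and with genes and TEs adjusted separately 297 genes and 2555 TEs. Leaving out 1 library at a time gave 383 (without met/dnmt3b replicate 1) to 1033 genes and 845 (without cmt replicate 3) to 1643 TEs. The interaction gave 1776 genes and 21 TEs with no batch term. The log2 ratio of the TE share, 0.66, became 1.78 with the batch difference added, and lay between 0.52 and 0.79 without 1 of the 6 libraries. Of 349 values of named features under alternatives, 317 kept direction and call, 32 kept direction only, and 0 reversed. Named features had been chosen to keep their sign with no batch term and without the wt, drm12 or cmt libraries. They were also chosen for libraries that did not overlap. The absence of reversals in those fits follows from this choice and is no independent support. The cause of the differences between settings was not tested. Batch and genotype cannot be told apart in the 6 libraries, and a group at 0 counts allows up to 3 for a single TE.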
